A study of Mus musculus with 3 samples.

Results

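The extracellular matrix genes of the mouse were followed across 3 sorted cell populations, 2 made from embryonic stem (ES) cells and 1 taken from the embryonic medial ganglionic eminence (MGE), the ventral forebrain structure that gives rise to most cortical interneurons. Members were the collagen chains, the laminin chains, Fn1, Fbn1, Fbn2, Nid1, Nid2, Sparc, Lum, Dcn, Bgn, Tnc, Vcan, Bcan, Ncan, Acan, Hspg2 and Agrn, chosen by gene symbol alone. Of the 20142 genes that the array probes name through a RefSeq transcript, 69 were members, covered by 100 probes. The symbol pattern fits 71 genes of the reference table, and the other 2, Col12a1 and Col6a3, had no probe named in that way and were not analysed here. A single probe stood for 45 members, 2 probes for 17 and 3 probes for 7, and a gene's value is the mean over its probes.

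All 3 populations carried the Lhx6-GFP bacterial artificial chromosome (BAC) transgene, in which sequence around Lhx6, a transcription factor gene of postmitotic MGE interneurons, drives GFP. MGE Lhx6-GFP+ cells were GFP-positive cells sorted fresh from the MGE of E12.5 transgenic embryos of the CD-1 background and were labelled female; they are called MGE cells in what follows. The ES populations, ES Lhx6-GFP+ (ES-GFP+) and ES Lhx6-GFP- (ES-GFP-), were the GFP-positive and GFP-negative sorts of 1 male ES line, J14, of the 129S4/SvJae strain, which by its label also held a viral 692-mCherry enhancer reporter. That line was grown as floating aggregates for 12 days. By the study's methods the first medium held serum replacement, with the Wnt inhibitor Dkk-1 at 100 ng/ml given at the start. The hedgehog agonist SAG at 6 nM was added from early in the protocol. On day 6 the aggregates moved to an N2-supplemented medium, again with SAG. The aggregates of many plates were pooled before sorting, a Rock inhibitor was present during dissociation, and the GFP-negative sort held whatever cells of the aggregates did not express the transgene. Strain, sex, growth in culture and the dissociation enzymes all differed between the MGE cells and the ES-derived cells, and these cannot be told apart here. There was 1 array per population, all on 1 slide, so no difference below has a replicate check and none carries a p-value.

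Collagens are proteins of 3 wound chains. Fibrillar collagens form the fibers of connective tissue, and collagen IV forms the sheet of basement membranes. Laminins, each built of an alpha, a beta and a gamma chain, form the second network of the basement membrane, and nidogens and perlecan link the networks. In the embryonic brain the main basement membranes lie under the meninges and around vessels, where radial glia, meningeal fibroblasts and endothelial and mural cells are the known sources, whereas the spaces between young neurons are filled mostly by hyaluronan and the chondroitin sulfate proteoglycans called lecticans.

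Array intensity is the fluorescence of a spot after background subtraction, and every level below is the log2 intensity minus the 75th percentile of that array. Intensities are printed before this scaling, differences after it, so that the fold between 2 arrays is not the plain ratio of their intensities. Levels of different genes were not compared, because each probe has its own response. Repeat spots of the same probe gave an SD of 0.198, 0.200 and 0.202 log2 units for a difference between arrays, and 2 SD, 0.40 log2 units or 1.32-fold, was taken as the technical spread. Where a probe was not well above background on an array it took the higher of its own level and the floor of that array, the lowest level of any probe well above background, and the fold is then a bound, written as at least N-fold.

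The arrays differed in their dim range. Control probes for viral and synthetic transcripts, which have no target in a mouse cell, had a median intensity of 69.9 on the ES-GFP+ array, 11.5 on the ES-GFP- array and 7.73 on the MGE array, and their 95th percentiles were 377, 208 and 152. A gene below that 95th percentile is called within the control range. Members above it numbered 20 in ES-GFP+ cells, 33 in ES-GFP- cells and 13 in MGE cells, which is 28.99%, 47.8% and 18.8% of members against 43.7%, 54.7% and 49.6% of all genes. Well above local background were 66, 62 and 54 members. Lhx6, the gene behind the sort, read 22250 in ES-GFP+, 4061 in ES-GFP- and 29403 in MGE cells, 6.19-fold higher in the first than in the second, although its 3 probes spread from 1.03-fold to 16.5-fold.

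To show where transcription of these genes begins, the 250 bases before the annotated start are printed for 4 members, with motifs in capitals. Sparc and Nid1 were among the members that were lowest in MGE cells, Col1a2 encodes a chain of the most abundant fibrillar collagen, and Ncan is a brain lectican that was not low. They were chosen after their values were seen. Sequences and positions are from RefSeq on GRCm38.p6, strand as stated, and capitals mark the CCAAT box (CCAAT, or ATTGG on the other strand), the GC box (GGGCGG, or its reverse complement) and the TATA box (TATAAA, or TTTATA).
Sparc, chr11:55420081-55420330, minus strand: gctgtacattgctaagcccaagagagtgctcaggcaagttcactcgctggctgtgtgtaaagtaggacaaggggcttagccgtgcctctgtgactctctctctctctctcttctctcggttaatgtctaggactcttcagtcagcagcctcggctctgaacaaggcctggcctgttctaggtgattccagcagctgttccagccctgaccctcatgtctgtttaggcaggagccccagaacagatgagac
Nid1, chr13:13437352-13437601, plus strand: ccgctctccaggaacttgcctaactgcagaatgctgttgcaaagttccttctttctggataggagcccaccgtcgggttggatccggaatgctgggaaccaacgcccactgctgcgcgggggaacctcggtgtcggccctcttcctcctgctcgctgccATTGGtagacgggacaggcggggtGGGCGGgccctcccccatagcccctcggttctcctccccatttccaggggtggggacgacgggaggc
Col1a2, chr6:4505368-4505617, plus strand: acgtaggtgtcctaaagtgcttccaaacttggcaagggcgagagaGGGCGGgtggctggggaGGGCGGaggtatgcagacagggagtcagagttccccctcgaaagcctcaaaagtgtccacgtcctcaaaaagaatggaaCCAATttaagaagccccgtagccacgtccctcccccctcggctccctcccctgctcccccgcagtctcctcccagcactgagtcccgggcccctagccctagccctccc
Ncan, chr8:70120845-70121094, minus strand: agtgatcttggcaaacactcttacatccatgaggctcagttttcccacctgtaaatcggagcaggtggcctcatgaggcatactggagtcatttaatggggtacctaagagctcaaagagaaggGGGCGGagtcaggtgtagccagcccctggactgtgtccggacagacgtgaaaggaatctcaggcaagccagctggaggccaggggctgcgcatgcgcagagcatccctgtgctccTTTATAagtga

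The Sparc window held none of the 3 motifs. Nid1 had 1 CCAAT box and 1 GC box, Col1a2 had 1 CCAAT box and 2 GC boxes, and Ncan had 1 GC box and 1 TATA box. RefSeq promoter windows were found for 50 of the 69 members, 56 windows in all. GGGCGG stood in 36 of them, or 64.3%, against 32.7% of all 32851 windows and 42.6% of the 21263 windows of protein-coding genes, searched on both strands. CCAAT stood in 32.1% of member windows and 33.8% of all, and TATAAA in 14.3% and 12.4%. A match is a string of letters and not a measured binding site.

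Col4a1 and Col4a2, which encode the paired chains of the common collagen IV, lie head to head, with Col4a1 read from the minus strand and Col4a2 from the plus strand. Their first annotated bases overlap by 22 bases, in capitals in this stretch of the plus strand, shown because both genes had the same order of levels over the 3 arrays:
Col4a1 and Col4a2, chr8:11312801-11312830, plus strand: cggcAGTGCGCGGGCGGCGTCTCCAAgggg

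The common feature of the members was a low level in MGE Lhx6-GFP+ cells. MGE had the lowest level of the 3 arrays for 55 of the 69 members, or 79.7%, against 52.7% of all genes. Values at the floor have no order, and among the 61 members with a measured difference in all 3 comparisons MGE was lowest for 47, 77% against 44.3% of all such genes. Among the 34 members above the control range on at least 1 array it was lowest for 26, or 76.5%, where all genes passing the same filter gave 36.1%. ES-GFP- cells were highest and MGE cells lowest for 19 of these 34, 55.9% against 20.7% of all such genes. The median level of the members was -1.91 in ES-GFP+, -2.12 in ES-GFP- and -3.77 in MGE cells.

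**Figure D1:**
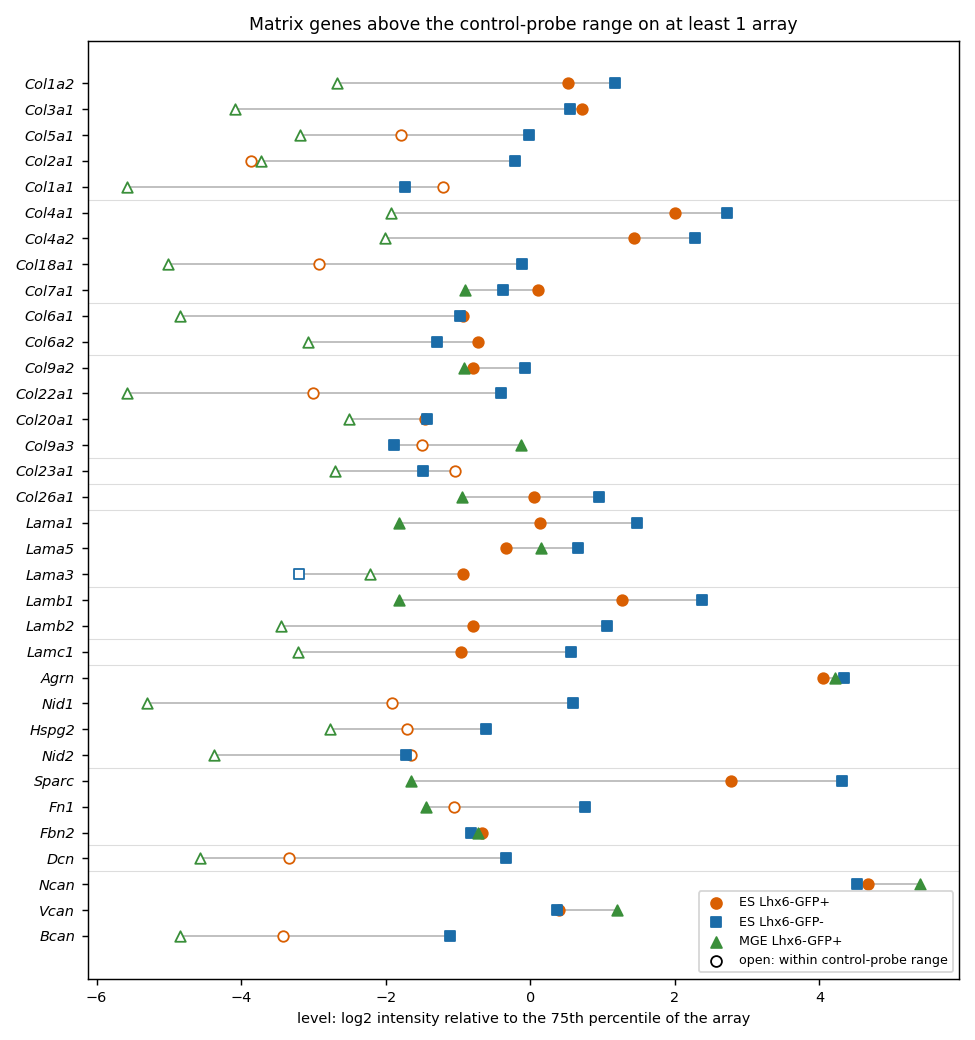
Levels of the 34 matrix genes above the control-probe range on at least 1 array, as log2 intensity relative to the 75th percentile of each array, 1 symbol per array and open symbols within the control range. Grey lines join the 3 values of a gene and light lines part the role groups. The MGE triangle lies farthest left for 26 of the 34 genes, and it lies farthest right for 3, Ncan, Vcan and Col9a3.

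In MGE against ES-GFP- cells, 37 of the 62 members with a difference were at least 2-fold lower and 3 (Col9a3, Col11a1 and Col6a5) at least 2-fold higher, where 17.2% of all genes were called lower and 9.9% higher. At least 4-fold lower were 23 members, against 6.8% of all genes. In MGE against ES-GFP+ cells, 47 of 66 were at least 2-fold lower and 1, Col9a3, higher, where 32.2% of all genes were called lower and 5.48% higher, and 23 were at least 4-fold lower against 13.5%. For 1 of these 47, Col15a1, the ES-GFP+ side was partly at its floor, and its 2.18-fold is an upper limit. In ES-GFP+ against ES-GFP- cells, 15 of 67 were at least 2-fold lower and 20 at least 2-fold higher, where 6.4% of all genes were called lower and 24% higher, and 6 (Bcan, Col18a1, Col22a1, Col2a1, Dcn and Nid1) were at least 4-fold lower against 1.75%. These splits moved with the scaling. With the 50th percentile in place of the 75th there were 34 lower and 7 higher, 29 lower and 4 higher, and 26 lower and 9 higher members in the 3 comparisons in that order, and with quantile normalization 32 and 5, 24 and 5, and 23 and 4. The 2 MGE comparisons share the MGE array, each ES array also enters 2 comparisons, and so the 3 sets of values are not independent of one another.

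The counts hold many dim genes. With a gene required to exceed the control range on at least 1 of the 2 arrays compared, 25 of 33 members were at least 2-fold lower in MGE than in ES-GFP- cells (15.2% of all such genes), 13 of 22 in MGE than in ES-GFP+ cells (9.17%), and 14 of 34 in ES-GFP+ than in ES-GFP- cells (8.97%). At least 2-fold higher in the same order was 1 member of each, Col9a3 (11.8% of such genes), Col9a3 again (8.79%) and Lama3 (6.01%), so that the other 19 members at least 2-fold higher in ES-GFP+ than in ES-GFP- cells were within the control range on both arrays. A member can pass this filter only through the array where it is bright, so these counts are a description.

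The median difference over the members was -1.64 log2 units in MGE minus ES-GFP-, -1.35 in MGE minus ES-GFP+ and 0.12 in ES-GFP+ minus ES-GFP-. All genes had medians of -0.06, -0.36 and 0.27 in the same order, so that relative to them the members stood at -1.59, -0.997 and -0.15. This relative shift was negative in all 3 comparisons under each of the 8 other settings tried.

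**Figure D2:**
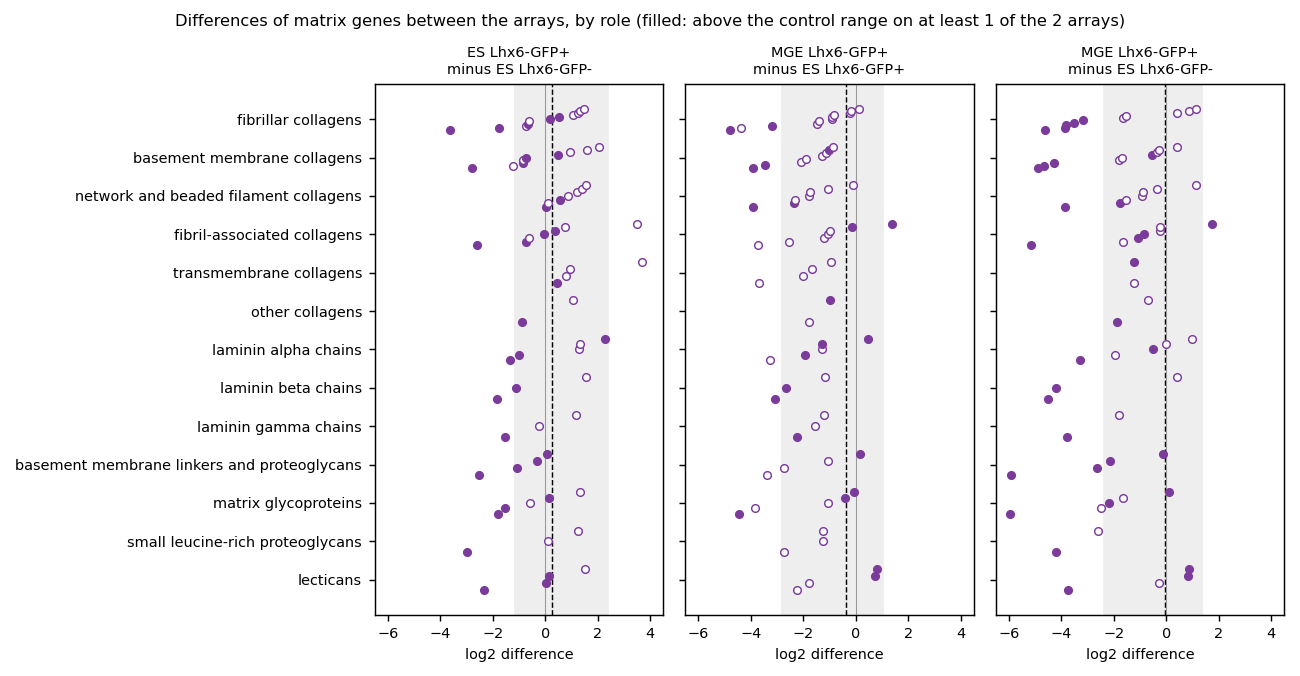
Log2 differences of the matrix genes between arrays, 1 point per gene and 1 row per role, in 3 panels for the 3 comparisons. Filled points exceed the control range on at least 1 of the 2 arrays, the grey band spans the 5th to 95th percentile of all genes and the dashed line is their median. In MGE minus ES-GFP- the 5 filled points of the fibrillar row and those of Col4a1, Col4a2, Col18a1, Lamb1, Lamb2, Lamc1, Nid1 and Sparc lie left of the band, and those of Agrn, Ncan and Vcan lie inside it.

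Of the basement membrane collagens, Col4a1 read 3000 in ES-GFP+, 5581 in ES-GFP- and 151 in MGE cells. Col4a2 read 2012, 4082 and 143 in the same order. Both chains were high in the 2 ES-derived sorts and lay within the control range in MGE cells, Col4a1 only just under its limit of 152. Col4a1 was 15.3-fold and Col4a2 10.9-fold lower in MGE than in ES-GFP+ cells, and 25.2-fold and 19.5-fold lower than in ES-GFP- cells. Between the ES-derived sorts they were 1.65-fold and 1.80-fold lower in the GFP-positive cells, past the spread of repeat spots and short of 2-fold. Across the other settings the log2 difference of Col4a1 from ES-GFP- cells stayed between -4.66 and -4.05.

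Col18a1, whose product releases the fragment endostatin, read 98.2, 775 and 15.8, and both of its probes gave it 6.99-fold lower in ES-GFP+ than in ES-GFP- cells. It was at least 29.7-fold lower in MGE cells than in the latter. With the control range as floor these log2 differences, -2.81 and -4.89, shrank to -0.87 and -1.80. Col7a1, of the anchoring fibrils of skin, read 801, 649 and 307 and stayed above the control range on all arrays. The remaining 5 chains, Col4a3 to Col4a6 and Col15a1, were within the control range throughout by their means, the brightest mean being 170 for Col4a4 in ES-GFP+ cells. Of the 3 probes of Col4a4, 1 read 480, 479 and 249, above the range on every array.

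Laminin chains gave the same order for the members that make up the early embryonic trimer. Lama1 read 821 in ES-GFP+, 2335 in ES-GFP- and 164 in MGE cells, Lamb1 1801, 4360 and 163, and Lamc1 384, 1240 and 62.2. In each case the GFP-negative sort was highest, the GFP-positive ES sort intermediate and MGE lowest. MGE cells were lower than ES-GFP- cells by 9.72-fold for Lama1, 18.2-fold for Lamb1 and 13.6-fold for Lamc1, and lower than ES-GFP+ cells by 3.86-fold, 8.50-fold and 4.76-fold. Between the ES-derived sorts the GFP-positive cells were 2.52-fold, 2.14-fold and 2.86-fold lower. Lama1 and Lamb1 lay just above the control limit of 152 in MGE cells, and Lamc1 lay within the control range.

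Lamb2, the beta chain of vessel and synaptic laminins, read 433, 1759 and 52.9 and was 22.7-fold lower in MGE than in ES-GFP- cells. Lama5 followed another course, with 593, 1336 and 635. It was 1.39-fold higher in MGE than in ES-GFP+ cells, 1.44-fold lower than in ES-GFP- cells, and the GFP-positive ES cells were a shade under 2-fold below the GFP-negative ones. Lama3, an epithelial alpha chain, was the 1 named member that was highest in ES-GFP+ cells by more than 2-fold, with 390, 66.6 and 123. The difference from ES-GFP- cells was at least 4.81-fold, both probes went the same way, and its value of 390 lay just above the control limit of 377. Lama2, Lama4, Lamb3 and Lamc3 lay within the control range on every array by the mean over their probes. The 2 probes of Lama2 disagreed, however, 1 reading 863, 537 and 522, above the range on all 3 arrays, and the other 73.6, 25.5 and 5.34.

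The linker Nid1 had among the widest spans. It read 198 in ES-GFP+, 1275 in ES-GFP- and 8.47 in MGE cells, where 1 of its 3 probes was well above background. Nid1 was 5.69-fold lower in ES-GFP+ than in ES-GFP- cells and at least 59.8-fold lower in MGE than in ES-GFP- cells, with the 3 probes from -6.58 to -5.30 in log2 units. Its relative Nid2 read 238, 255 and 27.7, thus close in both ES sorts (1.05-fold) and 6.29-fold lower in MGE than in ES-GFP- cells. With the control range as floor the log2 difference of Nid2 between MGE and ES-GFP- cells, -2.65, was -0.20, since its level barely passed that limit.

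Hspg2, which encodes perlecan, read 230, 552 and 84.3 and was 2.13-fold lower in ES-GFP+ and 4.47-fold lower in MGE than in ES-GFP- cells. Agrn, a heparan sulfate proteoglycan that neurons themselves make and that clusters acetylcholine receptors at the neuromuscular junction, went against the rest of its role group. It read 12344, 17129 and 10720, and its differences of -0.30, 0.17 and -0.13 log2 units in ES-GFP+ minus ES-GFP-, MGE minus ES-GFP+ and MGE minus ES-GFP- all lay within the spread of repeat spots and took either sign under the other settings.

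Among fibrillar collagens, Col3a1 read 1231 in ES-GFP+, 1228 in ES-GFP- and 33.9 in MGE cells. It encodes the collagen of distensible tissues such as vessel walls, was level between the ES sorts (1.13-fold) and stood 28.01-fold and 24.7-fold lower in MGE cells. Col1a1 and Col1a2, the chains of collagen I, read 323, 253 and 11.8, and 1072, 1902 and 90.2. MGE cells were at least 20.6-fold below ES-GFP+ cells for Col1a1, which was not well above background there, and 9.17-fold below for Col1a2. The 2 chains did not move together between the ES sorts, with differences of 0.53 log2 units for Col1a1 and -0.65 for Col1a2 in ES-GFP+ minus ES-GFP-. With the control range as floor the log2 difference of Col1a1 between MGE and ES-GFP- cells, -3.84, was -0.19.

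Col2a1, the cartilage collagen that early neuroepithelium and notochord also express, read 51.4, 725 and 43.5. It was 12.5-fold lower in ES-GFP+ and 11.4-fold lower in MGE than in ES-GFP- cells, and the 2 GFP-positive sorts lay within the repeat-spot spread of each other (1.10-fold). Both of those values were within the control range, and with that range as floor the log2 difference between the ES sorts, -3.64, was -0.77. Under quantile normalization the difference between the 2 GFP-positive sorts was 1.91 log2 units, higher in MGE. Col5a1, a regulator of fibril width, read 217, 832 and 63.0 and was 3.40-fold and 9.03-fold lower in ES-GFP+ and MGE cells than in ES-GFP- cells. The other 6 fibrillar chains were within the control range, at no more than 227.

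The collagen VI chains, which form beaded filaments around cells, resembled Col3a1 in the ES sorts. Col6a1 read 390, 431 and 20.1 and Col6a2 read 451, 344 and 68.3. Between the ES sorts Col6a1 differed by 1.02-fold and Col6a2 by 1.48-fold, whereas MGE cells were 15.0-fold and 5.09-fold below ES-GFP+ cells. The other 6 chains of this group, Col6a4, Col6a5, Col6a6, Col8a1, Col8a2 and Col10a1, were within the control range, and Col8a1 was not well above background on any array.

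Of the fibril-associated collagens, Col22a1 read 92.5, 634 and 10.2, 6.07-fold lower in ES-GFP+ and at least 35.8-fold lower in MGE than in ES-GFP- cells. With the control range as floor the former, -2.60 in log2 units, was -0.58. Col9a3, a chain of the cartilage collagen IX, was the exception of this group and was higher in MGE cells, with 265, 229 and 527. MGE was 2.58-fold above ES-GFP+ and 3.37-fold above ES-GFP- cells. Its partner Col9a2 read 431, 805 and 304 and differed by 1.09-fold between the GFP-positive sorts. Col20a1 read 271, 312 and 101. Col19a1 was not well above background on any array, and Col9a1, Col14a1 and Col16a1 were within the control range. Col9a2, Col9a3, Col20a1, Lama5, Col7a1, Agrn, Ncan, Vcan, Fbn2 and Tnc fell outside the rule for named genes and are given after their values were seen, as is the transmembrane collagen gene Col23a1 with 362, 300 and 64.7. The 3 probes of Col23a1 read 4.78, 307 and 185 in MGE cells.

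Col26a1, a collagen-like gene first found in testis and ovary, read 771, 1627 and 300 and was 3.70-fold lower in MGE than in ES-GFP- cells. Col28a1 was within the control range, and so were the transmembrane collagens Col13a1, Col17a1 and Col25a1.

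Sparc, a collagen-binding glycoprotein of basement membranes and remodelling tissue, had the largest difference measured on both sides among the 24 named members. It read 5134 in ES-GFP+, 16796 in ES-GFP- and 183 in MGE cells, above the control range in all 3. Its 2.90-fold step between the ES sorts and its 21.6-fold and 62.6-fold steps down to MGE cells were given alike by both probes, -4.50 and -4.37 for the former and -6.03 and -5.91 for the latter in log2 units. All other settings kept the last difference between -6.03 and -5.30.

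Fn1, which encodes fibronectin, read 361, 1421 and 212. It was 3.49-fold lower in ES-GFP+ and 4.58-fold lower in MGE than in ES-GFP- cells. The gap between the GFP-positive sorts, -0.39 log2 units, was inside the repeat-spot spread and changed sign with the setting, up to 0.36. Fbn2, the fibrillin of embryonic tissue, read 470, 479 and 348, with differences from -0.06 to 0.15 log2 units. These are means of 2 probes that went opposite ways, at -0.97 and 0.85 log2 units in MGE minus ES-GFP+ and -0.51 and 0.68 in MGE minus ES-GFP-. Fbn1 and Tnc were within the control range. The 2 probes of Tnc disagreed between the ES sorts, at -0.56 and 3.24 log2 units, and neither was well above background in MGE cells.

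The small leucine-rich proteoglycan gene Dcn, which encodes the collagen-binding decorin, read 74.1, 666 and 24.3. It was 7.96-fold lower in ES-GFP+ and 18.7-fold lower in MGE than in ES-GFP- cells. With the control range as floor the former, -2.99 in log2 units, was -0.65. Its -1.23 log2 units between MGE and ES-GFP+ cells compared 2 values within the control range, and under quantile normalization it was 0.45. Bgn and Lum were within the control range.

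The lecticans divided. Ncan (neurocan), which young neurons secrete, read 18950 in ES-GFP+, 19319 in ES-GFP- and 24126 in MGE cells and was 1.83-fold higher in MGE than in ES-GFP- cells. Vcan (versican), which lines the paths of migrating cells, read 980, 1094 and 1322 and was 1.77-fold higher in MGE than in ES-GFP- cells, with its 3 probes from 0.23 to 1.64 log2 units. Both were above the control range in all 3 populations and past the repeat-spot spread in MGE cells. Bcan (brevican), made by glia and oligodendrocyte precursors, read 33.9, 392 and 9.99. It was at least 4.98-fold lower in ES-GFP+ and at least 13.3-fold lower in MGE than in ES-GFP- cells. Acan was within the control range.

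For the 35 members within the control range on every array, MGE was lowest for 29, or 82.9%, and ES-GFP+ was highest with MGE lowest for 22, or 62.9%. All genes in that range gave 75.3% and 66.5%, so the order of these dim members lay near that of other dim genes. With a measured difference required in all 3 comparisons, MGE was lowest for 21 of 27 such members, 77.8% against 62.7%. A gene's place in the range is that of its mean, and 5 of the 35, Col16a1, Col25a1, Col4a4, Lama2 and Tnc, had at least 1 probe above the limit on at least 1 array. The ES-GFP+ array, highest for 22 of the 35, is the one on which the control probes themselves were brightest, at a median of 69.9 against 11.5 and 7.73. The part of that background in the values of these 35 genes was not tested.

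Of the 24 named members, 23 were at least 2-fold lower in MGE than in ES-GFP- cells, 21 lower in MGE than in ES-GFP+ cells, and 14 lower and 1 higher in ES-GFP+ than in ES-GFP- cells. The sign held in all other settings for 23 of the 23, 20 of the 21 and 15 of the 15. A difference of at least 2-fold held in all of them for 19, 11 and 8. Beside the genes whose values were given above, the control range as floor left less than 2-fold for Col6a1 (-0.96) and Col6a2 (-0.63) in MGE minus ES-GFP-, for Col6a1 (-0.99) and Lamc1 (-0.96) in MGE minus ES-GFP+, and for Col5a1 (-0.97) and Hspg2 (-0.38) between the ES sorts. It also left Col9a3, outside that rule, at 0.86 in MGE minus ES-GFP+. Since the rule picks the widest differences, these counts describe how the named values move with the processing and not how often members differ.

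**Figure D3:**
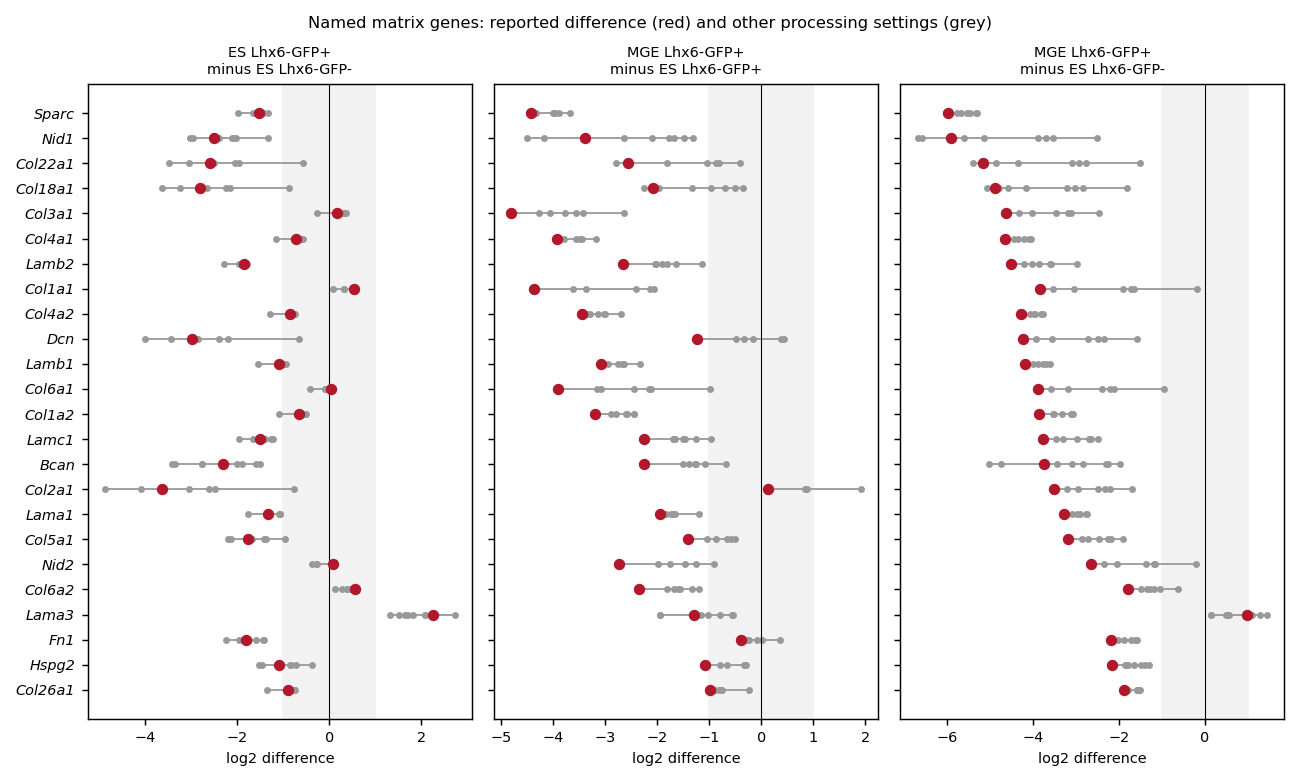
Log2 differences of the 24 named matrix genes in the 3 comparisons, red for the reported value and grey for the other processing settings, with a shaded band within 2-fold. In MGE minus ES-GFP-, all grey points of Sparc, Col4a1, Lamb1 and Lama1 stay below -2, whereas those of Col1a1 and Nid2 reach the shaded band.

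Genes that act on the same proteins were counted beside the members. Single genes of these lists are named after their values were seen. The shares of all genes at least 2-fold lower were 17.2% in MGE against ES-GFP-, 32.2% in MGE against ES-GFP+ and 6.4% between the ES sorts. At least 2-fold higher in the same order were 9.9%, 5.48% and 24% of all genes. Of 26 genes for collagen processing and crosslinking (hydroxylases, the collagen chaperone Serpinh1, lysyl oxidases, procollagen proteases), 18 were at least 2-fold lower and none at least 2-fold higher in MGE than in ES-GFP- cells, 19 lower and none higher in MGE than in ES-GFP+ cells, and 5 lower and 1, Adamts14, higher in ES-GFP+ than in ES-GFP- cells. Their medians were -1.70, -1.49 and -0.50 log2 units. P4ha2, a subunit of the prolyl hydroxylase that lets collagen fold, read 620, 1937 and 82.7 and was 16.0-fold lower in MGE than in ES-GFP- cells. Plod2, a lysyl hydroxylase needed for crosslinks, read 532, 1507 and 66.8 and was 15.4-fold lower.

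Of 25 matrix receptor genes on the arrays, 12 of 22 with a difference were at least 2-fold lower and none higher in MGE than in ES-GFP- cells. In MGE against ES-GFP+ cells 14 of 23 were lower and 1, the collagen receptor Ddr1, higher. Between the ES sorts 4 of 23 went in each direction, 17.4% each, where 6.4% of all genes were called lower and 24% higher. Sdc4, a heparan sulfate receptor of focal adhesions, read 180, 965 and 8.74 and was at least 54.6-fold lower in MGE than in ES-GFP- cells. The 2 probes of the integrin Itgav differed, at -1.97 and 0.11 log2 units between the ES sorts, around intensities of 291, 627 and 41.6.

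Matrix proteases and their inhibitors had 4 of 15 at least 2-fold lower and 2 (Adamts5 and Mmp16) higher in MGE than in ES-GFP- cells and 4 of 16 lower and 1 (Adamts5) higher in MGE than in ES-GFP+ cells, the latter share, 25%, being below that of all genes. Between the ES sorts 3 of 16 were lower and 3 higher in the GFP-positive cells, 18.75% each, where 6.4% of all genes were called lower and 24% higher. Adamts1, which cleaves lecticans, read 332, 1833 and 99.6, and the inhibitor gene Timp3 read 315, 1496 and 88.4, 12.6-fold and 11.6-fold lower in MGE than in ES-GFP- cells. Genes for hyaluronan and the perineuronal matrix gave 2 of 12 lower and 1 higher in MGE than in ES-GFP- cells, 4 lower and none higher in MGE than in ES-GFP+ cells, and 1 lower and 2 higher between the ES sorts, with shares lower of 16.7%, 33.3% and 8.33% that were near those of all genes. The share higher between the ES sorts, 16.7%, lay below the 24% of all genes. Has3, a hyaluronan synthase, was highest in MGE cells with 598, 229 and 915, and Ptprz1, a receptor phosphatase and chondroitin sulfate proteoglycan of radial glia, was highest in ES-GFP- cells with 554, 4057 and 667.

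Several cell types that make matrix could be present in a sort, and in bulk RNA fewer cells of a type and less RNA per cell cannot be told apart. Marker lists were therefore read beside the members, as the number of genes above the control range and the summed level in units of the 75th percentile. Of all genes, 43.7% in ES-GFP+, 54.7% in ES-GFP- and 49.6% in MGE cells were above that range. Radial glia markers, which include genes that many neural progenitors share, had 7 of 15 above the range in ES-GFP+, 14 in ES-GFP- and 8 in MGE cells and sums of 14.4, 73.9 and 16.9. Slc1a3 among them read 152, 2338 and 30.4 and Ednrb 250, 2512 and 40.1. Other genes of the list had a higher level in MGE than in ES-GFP+ cells. Levels in the same order of arrays were 0.86, 1.84 and 1.90 for Sox2, 2.02, 3.85 and 2.34 for Hes5, and -0.43, 2.27 and 0.21 for Ptprz1. Oligodendrocyte precursor markers had 3, 6 and 2 of 8 above the range, with sums of 2.98, 10.66 and 1.95. Olig1 read 72.9, 722 and 3.73, and Nkx2-2, which the paper uses as a hypothalamic marker, 652, 1798 and 13.5. Olig2 and Lhfpl3 were above the range on all arrays. Olig2 read 478, 4117 and 623, and Lhfpl3 was highest in ES-GFP+ cells with 460, 220 and 298.

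Extraembryonic endoderm, an early lineage rich in collagen IV, laminin and Sparc, had 3, 7 and 1 of 16 markers above the range and sums of 4.86, 10.14 and 1.11. Foxa1, also a floor plate gene, read 229, 1831 and 2.39 and Ttr, also a choroid plexus gene, 747, 778 and 2.65, neither well above background in MGE cells. Afp was not well above background on any array. Endothelial markers had 2, 4 and 1 of 15 above the range and sums of 2.88, 3.92 and 1.59. Egfl7 read 449, 1998 and 74.4 and Flt1 191, 270 and 5.87, whereas Kdr, the 1 endothelial marker above the range in MGE cells, was highest there with 142, 249 and 467, and Esam was highest in ES-GFP+ cells with 379, 94.2 and 73.4. Cdh5 and Sox18 were not well above background on any array.

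Mesenchymal, mural and meningeal markers had 3, 6 and 3 of 16 above the range and sums of 8.05, 7.75 and 8.81. Crabp2 among them, which neural cells also express, read 3546, 3611 and 2191. Pdgfrb read 75.03, 472 and 19.5 and Twist1 140, 475 and 4.94. Neuron markers were above the range for 17 of 17 genes on all arrays, with sums of 496, 352 and 616, and Dlx2 at 2658, 1137 and 6124. Nefl, at 3964, 7163 and 1628, and Nefm, at 867, 1390 and 668, were instead highest in ES-GFP- cells. The sums weigh bright genes most, and Snap25 read 155223, 157421 and 147475. Microglia markers had 1, 1 and 2 of 10 above the range, with sums of 2.11, 1.30 and 2.01, with Aif1 at 252, 73.1 and 163 and Csf1r at 498, 400 and 398. Erythroid markers stood apart in MGE cells, with 2, 2 and 4 of 10 above the range, sums of 3.29, 1.80 and 23.3, Hbb-y at 30.2, 13.3 and 5629 and Hba-a2 at 29.3, 29.6 and 1309. Klf1 went the other way, with 1210, 646 and 103. The part of any of these cell types in the matrix values was not tested.

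**Figure D4:**
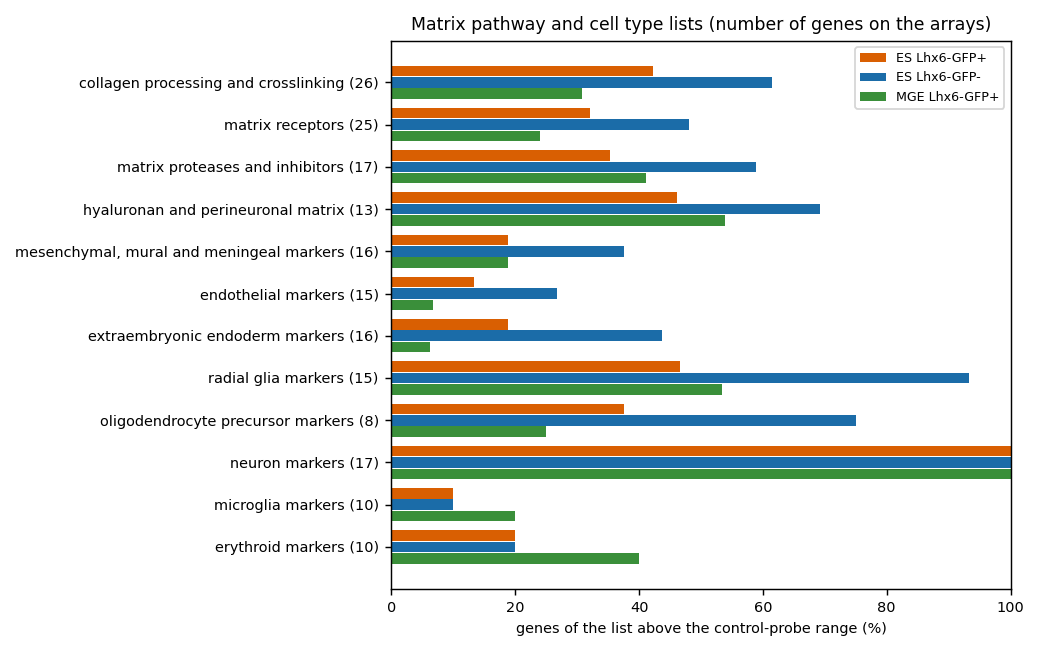
Percentage of the genes of each pathway or cell type list above the control-probe range, 1 bar per array, with the number of genes on the arrays in brackets. ES-GFP- has the longest bar for the 4 matrix pathway lists and for radial glia (14 of 15) and oligodendrocyte precursor markers (6 of 8), and neuron markers reach 17 of 17 on all 3 arrays. Among all genes ES-GFP- also had the largest share above the range, 54.7% against 43.7% in ES-GFP+ and 49.6% in MGE cells.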

How the data were processed

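RNA of FACS-purified cells was Cy3-labelled and hybridized to 1-colour Agilent mouse arrays, 1 array per population. The study's methods and the labels name different amplification kits and array formats; the file headers give Feature Extraction 10.7.3.1 and mouse build mm9. The authors deposited scanner intensity per spot, which Feature Extraction had background-subtracted, with flags for spots above background (coded 0 or 1, an other unit), and a table of log2 values. The deposited log2 columns, with medians of 7.69, 7.68 and 7.69, lay within 0.0979 of quantile-normalized log2 median signals, while their normalization is not named in the sources used here.

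Spots flagged as outliers (135, 137 and 98 per array) were left out, repeat spots averaged, and log2 intensity reduced by the 75th percentile of each array (intensities 747, 843 and 576). A probe counted as well above background if at least 0.5 of its spots were flagged so; other probes below the floor of the array (-4.99, -5.57 and -5.58) were raised to it and those above it kept their value. Probes were named through RefSeq transcripts, 26582 of 55681. With 1 array per group the number of arrays limits the precision and no test was run. Named genes were the 24 members with the largest absolute difference among the 34 above the 95th percentile of control probes on at least 1 array, and the 2 genes of each other list by the same rule. Members, lists and this rule were chosen with earlier results of these data known. Some listed genes were counted but their names are not reported here. The code was tested on simulated data. Alternatives were another percentile, quantile normalization, no background subtraction, normexp, another floor, no filter, the brightest probe, the deposited log2 values and a 4-fold limit. Python 3.11.15, pandas 2.3.3, numpy 2.4.6, R 4.3.3 and limma 3.58.1 were used.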

Additional observations from a re-analysis of the deposited data

How the results depend on the processing

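Over the 3 comparisons (ES Lhx6-GFP+ minus ES Lhx6-GFP-, MGE minus ES Lhx6-GFP+ and MGE minus ES Lhx6-GFP-, in this order throughout) the reported counts were 20, 1 and 3 matrix genes at least 2-fold higher and 15, 47 and 37 at least 2-fold lower, with median log2 differences of 0.12, -1.35 and -1.64. A 4-fold limit gave 4, 0 and 0 higher and 6, 23 and 23 lower. Scaling to the 50th percentile gave 9, 4 and 7 higher, 26, 29 and 34 lower and medians of -0.32, -0.61 and -1.34, and quantile normalization 4, 5 and 5 higher, 23, 24 and 32 lower and medians of -0.34, -0.50 and -1.11. These scalings moved the median of all genes by -0.44, 0.75 and 0.31 and by -0.27, 0.40 and 0.11. With the control range as floor there were 1, 1 and 1 higher, 8, 12 and 20 lower and medians of -0.65, -0.99 and -1.05. The deposited log2 values gave 3, 1 and 1 higher, 14, 17 and 25 lower and medians of -0.18, -0.34 and -0.71. Without background subtraction the counts were 9, 1 and 1 higher and 13, 26 and 26 lower and the medians 0.10, -0.79 and -0.71. Normexp on the median signal, chosen after the data were seen because the planned normexp on the mean signal could not be run without a mean signal column, gave 5, 1 and 1 higher, 13, 23 and 25 lower and medians of 0.07, -0.64 and -0.55. Without a filter on dim probes the median of MGE minus ES Lhx6-GFP+ was -1.78, and the other counts and medians of that setting and of the brightest probe stayed within 1.5 times or within the repeat-spot spread. The cause of these shifts was not tested.

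Of 58 single genes recomputed, 4 changed sign from a difference of at least 2-fold. In MGE minus ES Lhx6-GFP+, Dcn was 0.45 under quantile normalization and 0.38 in the deposited values, Itgav 0.46 with the control range as floor and with its brightest probe, and Pdgfrb 0.14 under quantile normalization. In ES Lhx6-GFP+ minus ES Lhx6-GFP-, Hbb-y was -0.16 under quantile normalization and -0.031 in the deposited values. No replicate could be left out with 1 array per population. No paired analysis was possible because each population had 1 array and the comparisons come from no test. Genes within the control range are limited by signal over background, most of all on the ES Lhx6-GFP+ array.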
